A study of Mus musculus with 12 samples.

Results

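Trametinib blocks the kinase MEK and so the output of ERK. The question here was for which genes the response to trametinib was different in melanoma cells that the paper calls partially reprogrammed. The response of a gene was its log2 level under trametinib minus its level under DMSO, and the response difference was the response of +dox cells minus the response of −dox cells. All 12 arrays of the series entered, 3 per group, and the 45101 probe sets of the array were reduced to 18193 genes, with the brightest probe set on average taken for each. A response difference above 0 is called a higher response in +dox cells, whether the gene rose more, fell less or moved in the opposite direction.

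C790 is a mouse melanoma cell line with mutant Nras. In all 4 groups the cells had been transduced with 2 lentiviral vectors, of which one carried Oct4, Sox2 and Klf4 with a blasticidin resistance gene under doxycycline control and the other the transactivator with mCherry. The +dox cells received doxycycline and, per the methods, blasticidin selection in a medium with leukaemia inhibitory factor, and the −dox cells were not induced. At day 20 both kinds of cells were given DMSO or trametinib for 72 hours; the labels do not give the trametinib concentration used for the arrays. The groups are therefore −dox DMSO, −dox trametinib, +dox DMSO and +dox trametinib. The labels do not say whether the arrays of a group came from separate cultures, and the study's general statement on independent experiments does not say how these arrays relate, so the p-values measure the spread between these arrays, which may be technical, and the number of arrays limits their precision. All RNA came from 1 line, and a change in the share of cells of a kind cannot be told apart from a change in RNA per cell.

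ERK, the last kinase of the RAS, RAF and MEK cascade, switches on immediate early transcription factors and its own feedback inhibitors, and melanomas with mutant RAS or RAF depend on it. Interferons act through receptors, JAK kinases and STAT and IRF factors on genes that hold the interferon-stimulated response element in their promoters, among them antiviral effectors and GTPases that attack intracellular pathogens.

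The array of −dox DMSO replicate 1 stood apart: its correlation with the other arrays of its group was 0.979 and 0.984, against 0.985 to 0.997 for the other pairs within groups. Results are therefore also given without it. A background level of 4.86 was set by receptor genes of smell and taste, which should be silent in these cells, and differences that start or end under this level are read from values close to background. Of the melanocyte lineage genes, Mitf read between 6.56 and 8.70, and Sox10 and Pmel read between 5.59 and 6.26 over the 12 arrays, whereas Tyr, Tyrp1, Dct and Mlana lay under the background level on every array. Of the vector's factors, Sox2 averaged 7.40 in −dox DMSO and 5.87 in +dox DMSO cells, Klf4 9.45 and 9.30, and Pou5f1 4.63 and 5.45. Whether their probe sets read the vector's transcript was not tested.

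Few genes passed the test of the response difference, and in the deposited scaling the response of most of them was higher in +dox cells. Both the count and the direction depended on the settings: with each array centred on its median 217 genes were called, 49 higher and 168 lower, and with arrays weighted by quality 1066 were called, 680 higher and 386 lower. By limma with Benjamini-Hochberg adjustment over all genes, 60 genes were called at an adjusted p under 0.05, which is 0.33% of those tested. In 47 genes (0.258%) the response was higher in +dox cells and in 13 genes (0.0715%) it was lower. The separate responses were far wider: 4072 genes (22.4%) were called for the response of −dox cells and 4772 genes (26.2%) for that of +dox cells. Between +dox and −dox cells, 1118 genes (6.15%) differed under DMSO and 614 genes (3.37%) under trametinib. The sizes of the called differences ran from 0.87 to 4.65 with a median of 1.79 on the log2 scale, while the median difference over all genes was −0.02. At an unadjusted p under 0.05 there were 2117 genes (11.6%), of which 1074 were higher and 1043 lower. The standard error of a response difference had a median of 0.198, against 0.140 for a single response, since it draws on all 4 groups. Of 689 genes whose responses differed by more than 1, 55 were called.

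**Figure D1:**
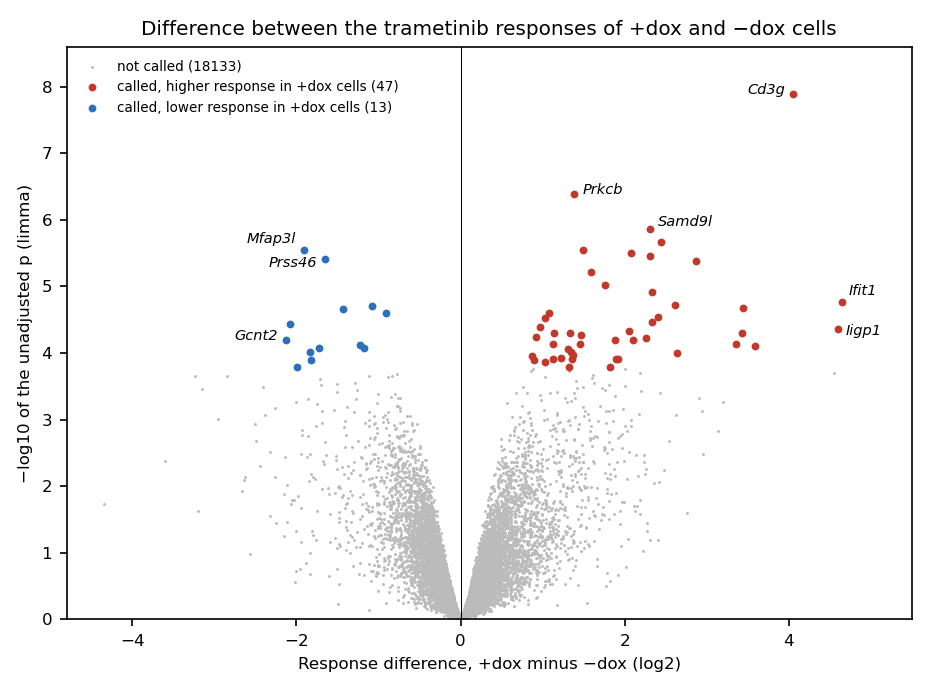
Response difference of each of the 18193 genes (x axis, log2, +dox minus −dox) against −log10 of its unadjusted limma p (y axis). The 47 called genes with a higher response in +dox cells (red) reach 4.65, and the 13 with a lower response (blue) reach −2.13.

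The called genes fell into several forms by where +dox and −dox cells differed. In 20 of the 47 genes with a higher response, the gene was lower in +dox than in −dox cells under DMSO and was not called between them under trametinib. In another 20 the opposite held: no call under DMSO, and a higher level in +dox cells under trametinib. In 5 genes, Zfp467, Msh3, Rgma, Dzip1 and Krba1, +dox cells were lower under DMSO and higher under trametinib, and Cd3g and Kcnq5 were higher in +dox cells under both. Of the 13 genes with a lower response, 11 were higher in +dox cells under DMSO and not called under trametinib, and Prss46 and Gcnt2 were lower in +dox cells under trametinib with no call under DMSO. In the absolute size of the +dox against −dox difference, 30 of the 60 genes were closer under trametinib and 30 were farther apart. A missing call in one of these comparisons does not show equal levels. These forms restate the same 12 arrays as the response difference and add no independent evidence.

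**Figure D2:**
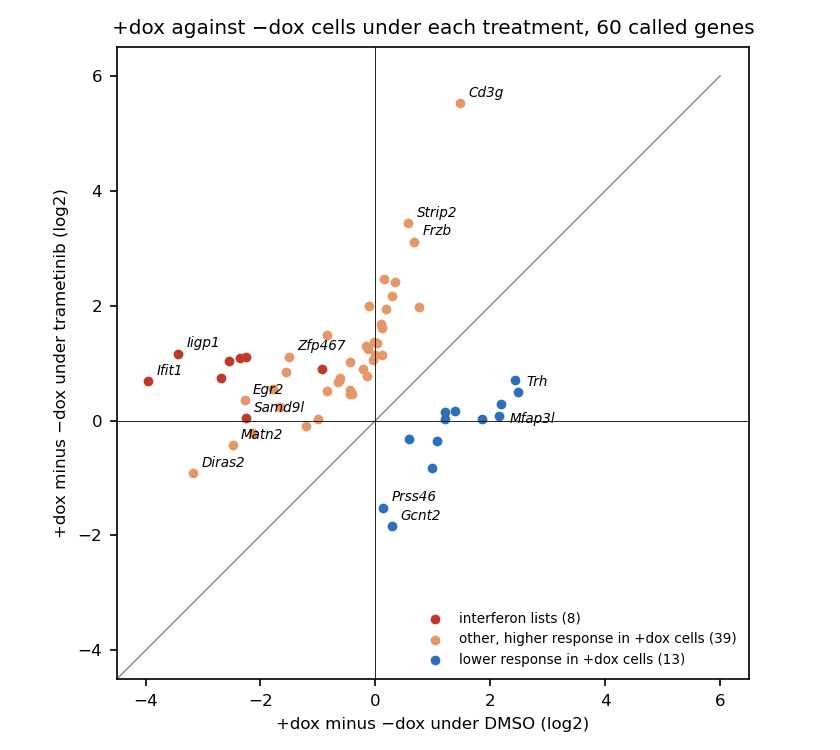
Difference between +dox and −dox cells under DMSO (x axis, log2) and under trametinib (y axis, log2) for the 60 called genes; the diagonal marks equal differences. The 8 genes of the interferon lists (red) lie between −3.96 and −0.93 under DMSO and between 0.04 and 1.16 under trametinib, and genes with a lower response in +dox cells (blue) lie under the diagonal.

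Genes of the interferon response made up the largest named group among them. Ifit1, which binds viral RNA, had the largest response difference of all called genes. It read 7.86, 10.06 and 8.53 in −dox DMSO cells and 11.53, 11 and 10.33 after trametinib. In +dox cells it read 5.01, 4.87 and 4.70 under DMSO and 11.89, 11.45 and 11.59 after trametinib. The 2 +dox groups were thus far apart, from background to the range of the highest −dox array, while −dox cells started well above background. The −dox cells rose by 2.14 and the +dox cells by 6.78, which left a response difference of 4.65 ± 0.65 (SE, n = 3 per group; limma adjusted p = 0.0217).

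Samd9l, an interferon-induced restriction factor, gave the smallest p of the group. Its values were 9.53, 9.72 and 9.53 in −dox DMSO and 10.90, 10.31 and 10.27 in −dox trametinib cells. They were 7.20, 7.43 and 7.37 in +dox DMSO and 10.80, 10.50 and 10.31 in +dox trametinib cells. The +dox DMSO arrays lay under all others, and the trametinib arrays of both kinds of cells overlapped. The response difference was 2.30 ± 0.25 (adjusted p = 0.00752). Gm20559, a predicted gene on no list, behaved in the same form. It read 8.03, 7.64 and 7.84 in −dox DMSO, 8.78, 7.88 and 8.09 in −dox trametinib, 6.03, 6.25 and 5.89 in +dox DMSO and 9.12, 8.66 and 8.63 in +dox trametinib cells. Here the −dox groups overlapped, and the difference of 2.33 ± 0.31 (adjusted p = 0.0172) lay in the +dox cells.

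The other called antiviral genes were Oasl2 and Oas1b, of the oligoadenylate synthetase family, and Rsad2, which encodes viperin. Oasl2 rose from 6.42 ± 0.33 (SD) to 10.98 ± 0.30 in +dox cells and read 9.11 ± 0.62 and 10.24 ± 0.76 in −dox cells, a response difference of 3.43 ± 0.54 (SE; adjusted p = 0.0306). Rsad2 rose from 6.34 ± 0.36 to 11.44 ± 0.23 in +dox cells and from 8.89 ± 0.60 to 10.40 ± 0.94 in −dox cells, a difference of 3.59 ± 0.59 (adjusted p = 0.0345). Oas1b differed by 1.82 ± 0.33 (adjusted p = 0.0497). The 3 called GTPases were the guanylate-binding proteins Gbp2 and Gbp3 and the immunity-related GTPase Iigp1. Gbp2 rose in both kinds of cells, from 9.62 ± 0.49 to 12.32 ± 0.72 in −dox and from 7.27 ± 0.32 to 13.41 ± 0.32 in +dox cells, and differed by 3.44 ± 0.49 (adjusted p = 0.0217). Gbp3 differed by 3.36 ± 0.55 (adjusted p = 0.0344). Iigp1 rose by 2.74 in −dox cells and, from a start under the background level, by 6.13 or more in +dox cells, and its fitted difference was 4.6 ± 0.71 (adjusted p = 0.0303). Gbp genes are close copies of each other, so signal between them may be shared; both probe sets of Gbp2 gave 3.44 and 3.46. Trafd1, an interferon-induced regulator of innate signalling on no list, differed by 1.03 (adjusted p = 0.0433).

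**Figure D3:**
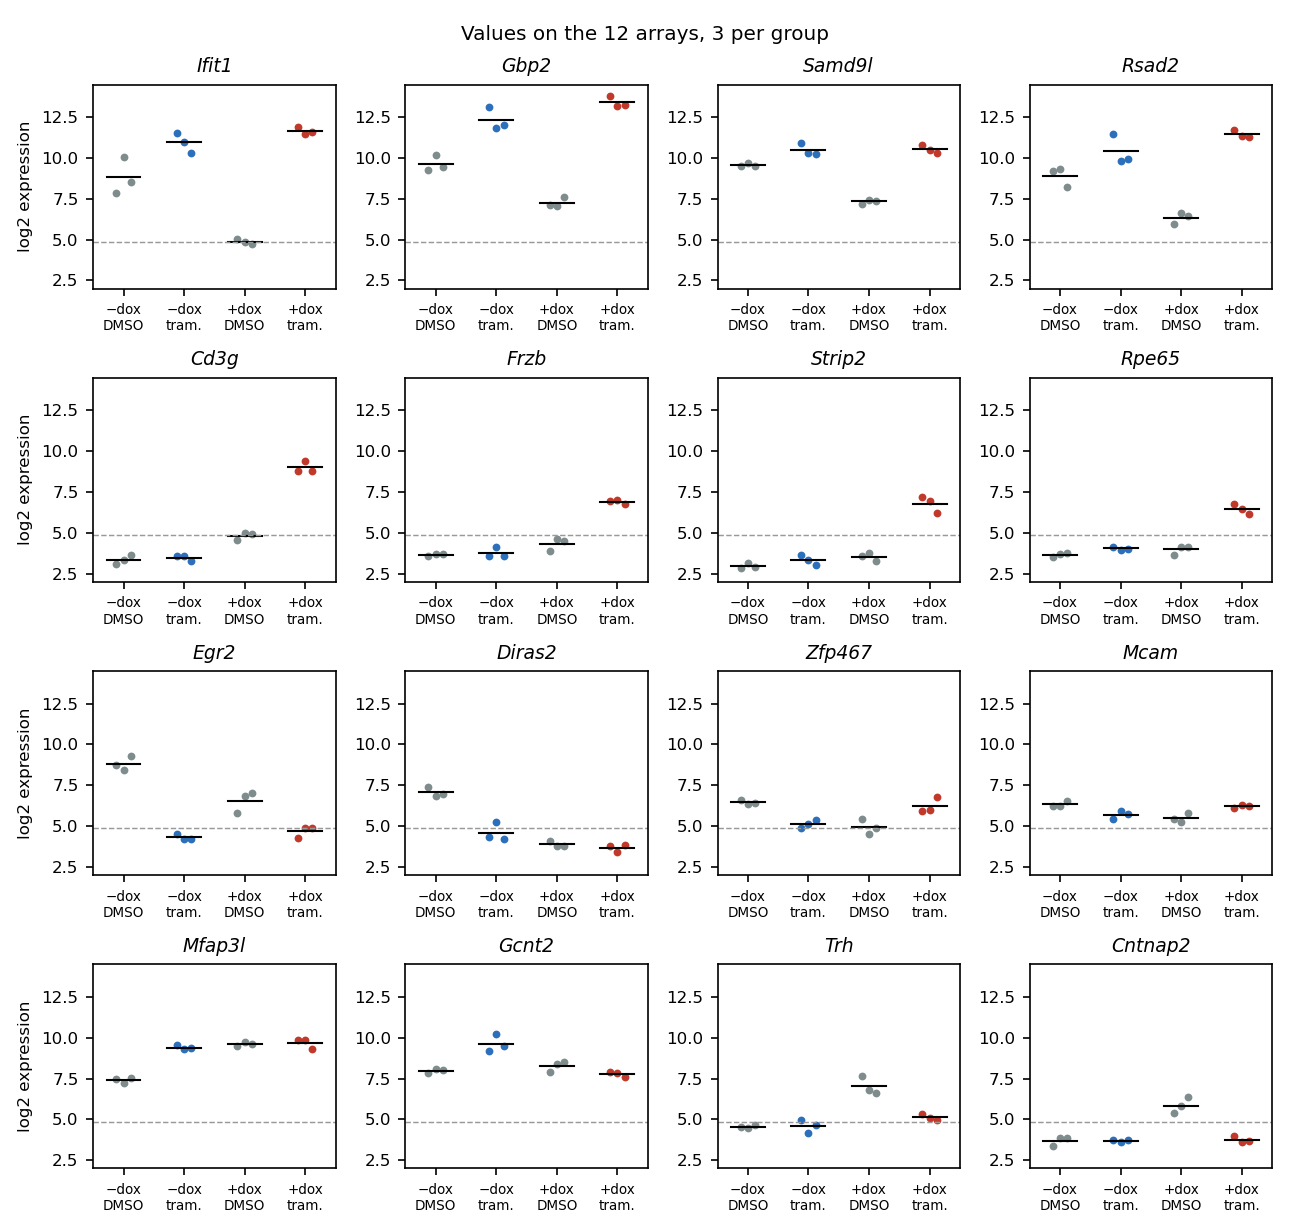
Log2 expression (y axis) on each of the 12 arrays for 16 called genes, with the 3 arrays of each group as points, the group mean as a bar and the background level of 4.86 as a dashed line. The interferon genes of the top row are lowest in +dox DMSO cells, Cd3g, Frzb, Strip2 and Rpe65 have a mean above the background level only in +dox trametinib cells, and Trh and Cntnap2 are highest in +dox DMSO cells.

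Of the whole antiviral list, 42 of 45 measured genes had a response difference above 0, against 46.1% of all genes tested, although few passed the test. Of the 45, 5 were called higher and 0 lower, 36 were higher and 0 lower at an unadjusted p under 0.05, and the median response difference was 1.46 against −0.02 for all genes. In +dox cells 36 of the 45 were called for a rise and 1 for a fall, with a median response of 1.86, and in −dox cells 13 for a rise and 3 for a fall, with a median of 0.70. Over all 18193 genes tested, 2503 were called for a rise in +dox cells and 2113 in −dox cells. Under DMSO 17 of the 45 antiviral genes were called lower in +dox cells and 0 higher, and under trametinib 0 were called in either direction. Of all genes tested, 596 were called lower and 522 higher in +dox cells under DMSO. Of 9 GTPases 3 were called higher, 7 were higher at an unadjusted p under 0.05, all 9 differences were above 0, and the median was 1.81. Several members with large differences missed the threshold: Ifit3 differed by 4.55 ± 0.84 (adjusted p = 0.0551), Rtp4 by 2.90 ± 0.59 (adjusted p = 0.0793) and Mx1 by 2.48 ± 0.73 (adjusted p = 0.190). These lists were written with earlier results of these arrays known.

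The antiviral genes also differed among arrays of a group. The median level of the list was 10.18 on −dox trametinib replicate 1 against 8.99 and 8.97 on the other 2, and 9.30 on −dox DMSO replicate 2 against 8.64 and 8.65. The +dox DMSO arrays lay at 7.56, 7.66 and 7.69 and the +dox trametinib arrays at 10.31, 9.88 and 9.81. The medians of the +dox DMSO arrays were thus under those of the 9 other arrays, whereas −dox trametinib replicate 1 reached the +dox trametinib arrays. Without that array, 21 of the 45 antiviral genes were called, and without −dox DMSO replicate 1, 10; without −dox trametinib replicate 3, +dox DMSO replicate 2 or 3 or +dox trametinib replicate 1 the count was 1 in each case. The median of the list stayed between 1.24 and 1.84 over these 12 runs, and that of the GTPases between 1.44 and 2.17. The calls among the GTPases ran from 0 to 5: none was called without −dox DMSO replicate 3, −dox trametinib replicate 3, +dox DMSO replicate 2, +dox DMSO replicate 3 or +dox trametinib replicate 1, and 5 were called without −dox trametinib replicate 1.

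The pathway upstream of these genes was read by role. The ligands Ifnb1, Ifna2, Ifna4 and Ifng had group means under the background level in all 4 groups, and Ifna1 was at 4.82 to 5.33. The receptors Ifnar1, Ifnar2, Ifngr1 and Ifngr2 had means between 8.44 and 10.71, with response differences of 0.02, −0.43, −0.05 and 0.42, none of them called. Of the kinases, Jak2 differed by 0.54, Jak1 by −0.27 and Tyk2 by 0.26, again without a call. Among the transcription factors, Stat2 differed by 1.61 ± 0.30 (adjusted p = 0.0578), Irf7 by 2.08 ± 0.48 (adjusted p = 0.115) and Irf9 by 1.39 ± 0.38 (adjusted p = 0.172), whereas Irf3 and Irf5, which act before the response, differed by 0.06 and −0.13. Stat2 read 6.10, 6.21 and 6.06 in +dox DMSO and 8.75, 8.59 and 8.64 in +dox trametinib cells, against 7.74, 7.99 and 6.92 and then 8.59, 8.48 and 8.37 in −dox cells. The feedback inhibitor Usp18 differed by 3.14 ± 0.75 (adjusted p = 0.120). In all, 0 of the 27 measured members were called by limma, 7 were higher and 2 lower at an unadjusted p under 0.05, and the median was 0.06. Leaving out −dox DMSO replicate 1 gave 3 called members, leaving out replicate 3 of that group gave 1, and leaving out −dox trametinib replicate 1 gave 2. Usp18, Irf7 and Stat2, which interferon itself induces, had the 3 largest values of this list.

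Sensors and antigen presentation genes had smaller values. Of 15 sensors and adaptors of cytosolic nucleic acids, 0 were called and 6 were higher at an unadjusted p under 0.05, with the smallest p for the RNA sensor Tlr3 at 1.58 ± 0.38 (adjusted p = 0.120), while the adaptors Mavs, Sting1 and Ticam1 had values of 0.14, −0.11 and −0.03. Of 19 antigen processing and presentation genes 0 were called and 7 were higher at that threshold, with a median of 0.43 and the smallest p for Nlrc5, the regulator of MHC class I genes, at 2.63 ± 0.58 (adjusted p = 0.105). Without −dox trametinib replicate 1, 4 sensors and 2 antigen presentation genes were called, and the medians of the 2 lists rose from 0.39 and 0.43 to 0.64 and 0.67.

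The promoters of called interferon genes were searched for the interferon-stimulated response element, because the genes moved together. The letters were GAAANNGAAA on either strand, in RefSeq windows from 250 bases before to 50 after each start site (GRCm38.p6). Of all windows, 3.44% held a match, and of the 14452 tested genes with a window, 3.63% did. Among the called genes on the interferon lists 4 of 6 with a window had a match, and among the other called genes 2 of 43, Sv2b and Pde1b. Over the whole lists it was 15 of 36 antiviral genes and 6 of 6 GTPases. Letters of the gamma-activated site, TTCNNNGAA, were searched separately and lay in 8.3% of all windows, in 0 of the 6 called interferon genes, in 8 of the 43 other called genes (18.6%) and in 3 of the 6 GTPases. A match is only a description of these letters, and a window without one says nothing of the factor.

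Among the called interferon genes, Oasl2 and Samd9l had windows without a match, as did another window of Gbp3. The 4 windows shown were chosen because they held a match. Their genes, like Oasl2 and Samd9l, were lowest in +dox DMSO cells. The windows are Ifit1 at chr19:34640639-34640938 on the plus strand, Gbp2 at chr3:142620413-142620712 on the plus strand, Gbp3 at chr3:142559794-142560093 on the plus strand and Rsad2 at chr12:26456403-26456702 on the minus strand. Each is printed in the direction of its gene with the matches in capitals; all of them lie on the strand opposite to the gene. Ifit1 and Gbp3 hold 2 matches each, which overlap in Gbp3. The first match starts at position −104 from the start site in Ifit1, −59 in Gbp2, −45 in Gbp3 and −120 in Rsad2.
Ifit1: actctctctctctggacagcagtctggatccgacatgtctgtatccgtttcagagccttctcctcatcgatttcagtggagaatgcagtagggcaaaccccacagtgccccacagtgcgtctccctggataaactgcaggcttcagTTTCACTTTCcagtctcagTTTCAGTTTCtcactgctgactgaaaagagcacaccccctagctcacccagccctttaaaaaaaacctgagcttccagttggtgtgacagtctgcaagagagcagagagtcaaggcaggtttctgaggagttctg
Gbp2: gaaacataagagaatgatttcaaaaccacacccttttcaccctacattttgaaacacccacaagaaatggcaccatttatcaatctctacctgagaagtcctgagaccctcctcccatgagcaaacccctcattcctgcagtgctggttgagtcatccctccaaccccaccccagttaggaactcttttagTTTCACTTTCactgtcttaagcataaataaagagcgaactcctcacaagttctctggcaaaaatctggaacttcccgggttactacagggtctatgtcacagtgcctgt
Gbp3: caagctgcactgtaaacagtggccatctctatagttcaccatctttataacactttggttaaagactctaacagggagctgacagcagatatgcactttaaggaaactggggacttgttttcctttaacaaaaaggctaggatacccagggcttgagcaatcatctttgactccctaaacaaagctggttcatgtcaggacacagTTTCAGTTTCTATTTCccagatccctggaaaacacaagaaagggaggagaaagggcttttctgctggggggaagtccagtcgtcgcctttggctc
Rsad2: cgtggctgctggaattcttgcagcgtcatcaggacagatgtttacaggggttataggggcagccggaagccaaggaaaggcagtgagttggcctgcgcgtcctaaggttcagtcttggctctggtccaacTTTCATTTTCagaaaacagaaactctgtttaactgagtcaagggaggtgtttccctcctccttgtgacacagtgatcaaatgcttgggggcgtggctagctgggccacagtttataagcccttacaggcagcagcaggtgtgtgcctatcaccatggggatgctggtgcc

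A second group of 12 genes had a mean above the background level in +dox trametinib cells only. Cd3g, the gamma chain of the CD3 complex of T cells, had the smallest p of all genes. It read 3.12, 3.32 and 3.62 in −dox DMSO, 3.57, 3.61 and 3.27 in −dox trametinib, 4.59, 4.98 and 4.91 in +dox DMSO and 8.78, 9.43 and 8.81 in +dox trametinib cells. The −dox arrays overlapped under the background level, +dox DMSO arrays were near it, and the +dox trametinib arrays were far above all others. The rise in +dox cells was at least 4.15, and the fitted response difference was 4.05 ± 0.28 (adjusted p = 0.000234). No other T cell marker was called: its neighbour Cd3d and Cd3e, chains of the same complex, differed by 0.34 and −0.23, Cd247 by −0.42, and 4 of the 10 measured markers, Cd2, Cd5, Cd28 and Cd247, lay under the background level in all groups. The others lay above it in at least 1 group: Zap70 read 8.31 to 8.63 and Cd4 5.57 to 5.99 over the 12 arrays, with response differences of 0.11 and 0.20, and Cd8a differed by 0.02.

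The Wnt antagonists Frzb and Sost belonged to this group. Frzb, a secreted antagonist, read 3.61, 3.68 and 3.72 in −dox DMSO and 3.60, 4.16 and 3.60 in −dox trametinib cells. It read 3.91, 4.63 and 4.50 in +dox DMSO and 6.92, 7.01 and 6.77 in +dox trametinib cells, so that all 3 of the last were above the level and the 9 other arrays under it. The rise in +dox cells was at least 2.04, and the fitted response difference was 2.44 ± 0.27 (adjusted p = 0.00752). Sost, another antagonist, differed by 2.10 ± 0.34 (adjusted p = 0.0321), and Apcdd1, a membrane inhibitor of Wnt signalling outside the list that was above background in all groups, by 2.33 ± 0.35 (adjusted p = 0.0274). Other probe sets of Apcdd1 above the background level gave 2.49, 2.27, 2.21 and 0.47, and that under it gave −0.01. Over the 46 measured genes of the Wnt pathway list, Frzb and Sost were the called ones and the median was 0.02. The next values were the ligand Wnt5a at 2.94 ± 0.64 (adjusted p = 0.0997) and the antagonist Dkk2 at 2.18 ± 0.48 (adjusted p = 0.102).

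The other members of the group with the smallest p came from several families. Strip2, a component of phosphatase and kinase complexes, read 2.85, 3.15 and 2.91, then 3.63, 3.36 and 3.02 in −dox cells under DMSO and trametinib, and 3.60, 3.76 and 3.26, then 7.17, 6.97 and 6.19 in +dox cells. Rpe65, an isomerase of the visual cycle, read 3.49, 3.72 and 3.74, then 4.16, 3.93 and 4.04 in −dox cells, and 3.64, 4.16 and 4.15, then 6.74, 6.46 and 6.17 in +dox cells. Both were at background on 9 arrays and clearly above it on the +dox trametinib arrays, with response differences of 2.87 ± 0.34 and 2.08 ± 0.24 (adjusted p = 0.00752 for each). Khdc1a, a KH domain gene of oocytes and early embryos, read 2.79, 3.12 and 2.96, then 3.57, 3.55 and 3.89 in −dox cells, and 3.19, 2.87 and 3.27, then 6.48, 6.23 and 5.70 in +dox cells. Il17d, a cytokine of the interleukin 17 family, read 3.60, 3.37 and 3.42, then 4.04, 4.22 and 4.19 in −dox cells, and 3.71, 3.58 and 3.64, then 6.41, 6.2 and 5.66 in +dox cells. Both had small rises under the background level in −dox cells too, and differed by 2.31 (adjusted p = 0.00752) and 1.76 (adjusted p = 0.0142). The other probe set of Il17d, with a mean under the background level, gave 0.27.

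Tbx21, the T-box factor of type 1 helper T cells, read 3.06, 3.13 and 2.98, then 3.28, 3.31 and 3.14 in −dox cells, and 3.07, 3.19 and 3.19, then 5.30, 4.76 and 4.73 in +dox cells. Prkcb, a protein kinase C, read 3.24, 3.31 and 3.25, then 3.19, 3.21 and 3.28 in −dox cells, and 3.18, 3.25 and 3.31, then 4.44, 4.6 and 4.73 in +dox cells. Slc6a20a, an amino acid transporter, read 2.73, 2.66 and 2.59, then 3.03, 2.83 and 3.11 in −dox cells, and 2.51, 2.90 and 2.91, then 4.65, 4.53 and 4.62 in +dox cells. These 3 genes were called at adjusted p of 0.00987, 0.00367 and 0.00752, yet Prkcb and Slc6a20a stayed under the background level on all 12 arrays and Tbx21 passed it on 1. Of the 60 called genes, 30 were above the level in all 4 groups, 12 only in +dox trametinib cells and 6 in none, namely Prkcb, Slc6a20a, Vmn1r51, Fgf1, Pamr1 and Myhas. The other 2 probe sets of Prkcb gave 0.26 and −0.02. With genes whose mean was under the level left out, 25 of 12005 genes were called, 18 higher and 7 lower.

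Other called genes that were higher in +dox than in −dox cells under trametinib included Crhr2, the receptor for urocortins, at 1.33, and its ligand gene Ucn3 at 1.37. Pcsk1n, an inhibitor of prohormone cleavage, differed by 1.88, Pde1b, a calcium-dependent phosphodiesterase, by 1.08, Sv2b of synaptic vesicles by 1.12, the potassium channel gene Kcnq5 by 1.22, and the growth factor gene Fgf1 by 0.92. Akap17b differed by 1.14, Zfp608 by 1.47, Pamr1 by 1.45 and Vmn1r51, a vomeronasal receptor gene of the families that set the background level, by 1.03. Their adjusted p lay between 0.0229 and 0.0415. Other probe sets gave smaller values: 0.45 for Crhr2, 0.21 for Sv2b, 0.23 and 0.01 for Kcnq5, and 0.40 and −0.04 for Fgf1. For Akap17b and Zfp608 they gave 0.70 and 0.75. All but that of Zfp608 had a mean under the background level.

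In another group −dox cells fell and +dox cells, lower from the start, fell less or not at all. Egr2, an immediate early factor of the ERK pathway, was the only one of 28 ERK output genes called. It read 8.73, 8.46 and 9.30, then 4.53, 4.22 and 4.23 in −dox cells, and 5.79, 6.83 and 7.05, then 4.28, 4.90 and 4.88 in +dox cells. The groups under trametinib overlapped near background, so the response difference of 2.63 ± 0.45 (adjusted p = 0.0391) came with the lower level of +dox cells under DMSO. Of the 28 ERK output genes, Egr2 included, 20 were called for a fall in −dox cells and 20 in +dox cells. Over all 18193 genes tested these counts were 1959 and 2269. The median responses of the list were −2.63 and −1.87. Its median response difference was 0.23, or 0.05 with −dox DMSO replicate 3 left out and 0.07 when +dox trametinib replicate 1 was. Calls in this list ran from 0 to 4 higher when 1 array was left out, the 4 arising without +dox DMSO replicate 1, where 1 gene was also called lower. Spry2, Spred2 and Dusp6, feedback inhibitors of the pathway, differed by 1.40 ± 0.27 (adjusted p = 0.0626), 1.18 ± 0.23 (adjusted p = 0.0742) and 1.22 ± 0.28 (adjusted p = 0.112). Dusp6 ended at 3.75, 4.42 and 3.68 in −dox trametinib cells, under the background level. In +dox trametinib cells it read 4.83, 5.24 and 4.81, so its difference is read from values close to background. At an unadjusted p under 0.05, 8 of the 28 were higher and 2 lower. Of the 28 differences 17 were above 0 and 11 under it, from −1.83 to 2.63. Fosl1 and the phosphatase gene Dusp4 fell further in +dox cells, without a call. Fosl1 read 7.14, 7.71 and 7.37, then 5.79, 5.37 and 5.06 in −dox cells. In +dox cells it read 7.55, 8.94 and 9.48, then 4.72, 4.88 and 4.89. Dusp4 read 9.69, 9.43 and 9.49, then 5.49, 5.16 and 4.08 in −dox cells. In +dox cells it read 10.48, 10.38 and 10.3, then 4.6, 5.3 and 5.31.

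Diras2, a small GTPase of the RAS superfamily, fell by at least 2.20 in −dox cells to under the background level, and was under it in both +dox groups; its fitted difference was 2.26 ± 0.36 (adjusted p = 0.0321). Lmcd1, a LIM domain gene, and Zfp503, a zinc finger gene, had the same form with differences of 1.92 and 1.12. Other probe sets of Diras2 and Zfp503, with means under the background level, gave 0.31 and 0.30. Mcam, the melanoma cell adhesion molecule, fell from 6.33 ± 0.17 to 5.70 ± 0.27 in −dox cells and rose from 5.49 ± 0.28 to 6.22 ± 0.10 in +dox cells, a response difference of 1.35 ± 0.24 (adjusted p = 0.0415). Opposite responses that were both called occurred in 5 genes, Zfp467, Mcam, Dzip1, Krba1 and Myhas. Zfp467, a zinc finger gene, fell by 1.32 in −dox cells and rose by 1.29 in +dox cells, and Krba1, its neighbour on the chromosome, fell by 0.46 and rose by 0.42. Their response differences were 2.61 and 0.87, and that of Dzip1, a gene of the primary cilium, was 1.34. Msh3, of mismatch repair, fell by 1.16 in −dox cells and differed by 0.97, and the guidance gene Rgma differed by 1.31. The remaining called genes with a higher response were Matn2, a matrix protein, at 2.05, Tppp3, a tubulin-binding protein, at 2.40, Gp1bb, a platelet glycoprotein, at 1.89, Pcbd2 at 0.90 and the noncoding C130071C03Rik at 1.32. Another probe set of Gp1bb above the background level gave −0.04.

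The 13 genes with a lower response were mostly genes that were higher in +dox cells under DMSO and fell in these cells with trametinib. Mfap3l, named for its likeness to a microfibril-associated protein, had the smallest p and was an exception. It read 7.48, 7.25 and 7.53, then 9.55, 9.29 and 9.36 in −dox cells, and 9.47, 9.72 and 9.63, then 9.87, 9.86 and 9.31 in +dox cells. Only the −dox DMSO arrays were low, and the 9 others lay between 9.29 and 9.87, so −dox cells rose by 1.98 to the level that +dox cells already had. The response difference was −1.91 ± 0.22 (adjusted p = 0.00752); its other 2 probe sets gave −0.81 and −0.76.

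Cntnap2, a neurexin-like adhesion protein, read 3.36, 3.85 and 3.85, then 3.74, 3.61 and 3.71 in −dox cells, and 5.36, 5.82 and 6.35, then 3.99, 3.61 and 3.68 in +dox cells. Stag3, a cohesin subunit of meiosis, read 3.57, 3.67 and 3.66, then 3.64, 3.62 and 3.66 in −dox cells, and 5.85, 5.76 and 6.60, then 4.10, 4.67 and 4.28 in +dox cells. Misp3 read 4.13, 4.53 and 4.37, then 4.11, 4.11 and 4.06 in −dox cells, and 5.59, 6.39 and 6.64, then 3.96, 4.18 and 4.21 in +dox cells. All 3 genes were above the background level on the +dox DMSO arrays alone and under it on the 9 others. Their response differences were −2.08 ± 0.32, −1.73 ± 0.29 and −1.84 ± 0.31 (adjusted p = 0.0274, 0.0355 and 0.0384). The other probe sets of Cntnap2, with means under the background level, gave −0.47 and 0.28. Trh, the thyrotropin-releasing hormone gene, averaged 7.03 in +dox DMSO and 5.11 in +dox trametinib cells, against 4.54 and 4.62 in −dox cells, a response difference of −1.99 ± 0.36 (adjusted p = 0.0497).

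Cpox, of haem synthesis, read 7.02, 7.25 and 7.20, then 6.82, 6.76 and 6.55 in −dox cells, and 8.28, 8.37 and 8.47, then 6.83, 6.96 and 6.76 in +dox cells. Ydjc read 7.80, 8.18 and 8.03, then 7.66, 7.85 and 7.56 in −dox cells, and 8.81, 9.24 and 9.16, then 7.17, 7.43 and 7.39 in +dox cells. Zfp52, a zinc finger gene, read 9.12, 9.69 and 9.50, then 8.50, 9.23 and 8.70 in −dox cells, and 10.17, 10.25 and 10.86, then 7.96, 7.92 and 8.07 in +dox cells. These 3 genes were well above background on all arrays, highest in +dox DMSO cells and fell there by 1.52, 1.74 and 2.44. Their response differences were −1.08 ± 0.15, −1.43 ± 0.20 and −1.82 ± 0.32 (adjusted p = 0.0217, 0.0217 and 0.0415). Acer3, an alkaline ceramidase, read 7.46, 7.40 and 7.39, then 7.84, 7.57 and 7.57 in −dox cells, and 7.95, 8.05 and 7.99, then 7.29, 7.34 and 7.36 in +dox cells. Epp13, an epididymal protein, read 4.54, 4.71 and 4.90, then 5.28, 4.96 and 5.02 in −dox cells, and 5.95, 6.0 and 6.35, then 5.09, 5.32 and 5.32 in +dox cells. Both were highest in +dox DMSO cells with no overlap with another group, and differed by −0.91 and −1.23. Myhas, a myosin heavy chain antisense RNA, read 3.30, 3.07 and 3.10, then 3.62, 3.63 and 3.62 in −dox cells, and 4.22, 4.66 and 4.23, then 3.5, 3.59 and 3.88 in +dox cells, all under the background level, and differed by −1.18.

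Gcnt2, an enzyme of glycan branching, and Prss46, a serine protease, were apart only under trametinib. Gcnt2 read 7.83, 8.10 and 8.0, then 9.18, 10.21 and 9.47 in −dox cells, and 7.88, 8.40 and 8.51, then 7.92, 7.84 and 7.58 in +dox cells. Prss46 read 4.31, 4.44 and 4.51, then 6.51, 6.88 and 6.53 in −dox cells, and 4.78, 4.36 and 4.53, then 5.29, 5.05 and 5.03 in +dox cells. For both the −dox trametinib arrays lay above the 9 others. The response differences were −2.13 ± 0.34 (adjusted p = 0.0321) and −1.65 ± 0.20 (adjusted p = 0.00752). Other probe sets of Gcnt2 above the background level gave −2.45, −2.43, −1.55 and −0.29. Those under it gave −0.24, −0.07 and −0.02.

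**Figure D4:**
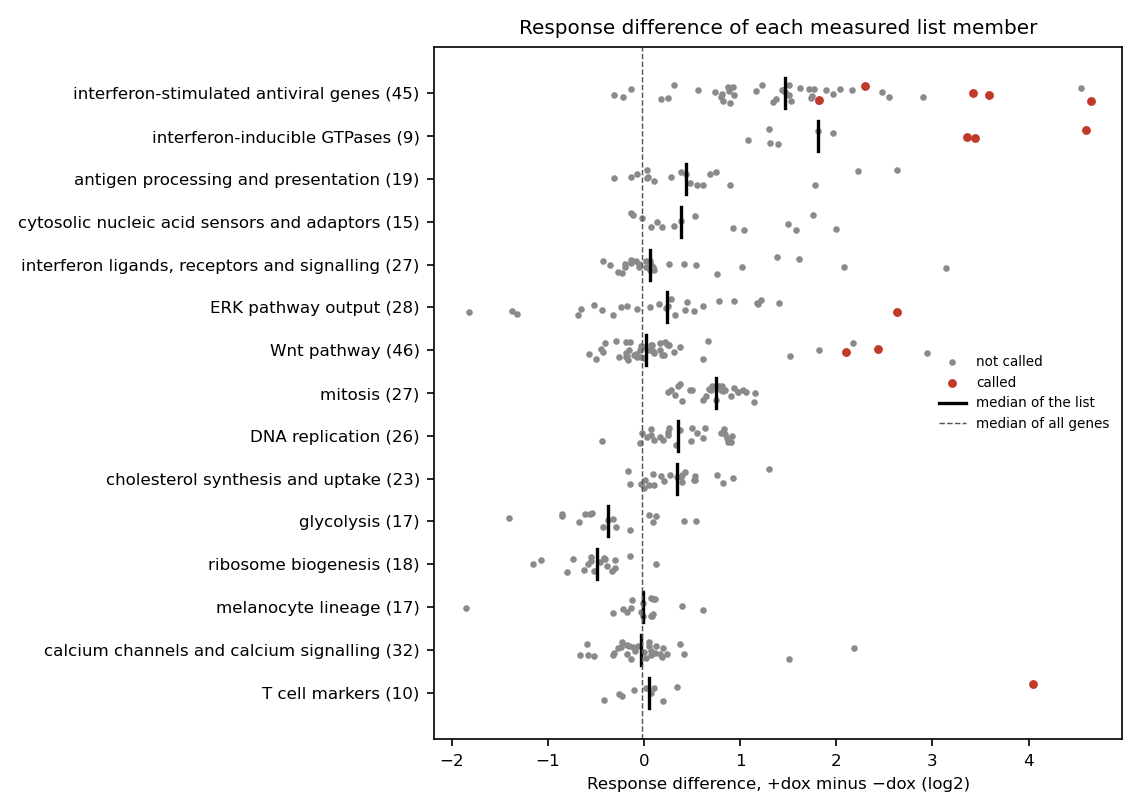
Response difference (x axis, log2, +dox minus −dox) of each measured member of 15 gene lists (rows, with the number of members measured), with called members in red, the list median as a black bar and the median of all genes as a dashed line. The antiviral genes and GTPases lie furthest to the right, with medians of 1.46 and 1.81, and ribosome biogenesis furthest to the left, with a median of −0.49.

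Several lists without a called member had values mostly to one side of 0, whereas 46.1% of all genes tested had a response difference above 0. All 27 measured mitosis genes had a response difference above 0 with a median of 0.74, and 0 were called by limma, 4 being higher at an unadjusted p under 0.05; Cenpe, a kinetochore motor, had the smallest p at 1.16 ± 0.43 (adjusted p = 0.320). All 27 were called for a fall in both kinds of cells, against 1959 of all 18193 genes in −dox and 2269 in +dox cells. The median responses of the list were −2.73 for −dox and −1.91 for +dox cells. The +dox trametinib arrays were not alike here: the median level of the list was 8.32, 9.14 and 7.67 on replicates 1, 2 and 3, and without replicate 2 of that group the median difference was 0.30, without replicate 3 it was 1.14. Of 26 DNA replication genes 0 were called, 2 were higher and 1 lower at the unadjusted threshold, and the median was 0.36, which fell to 0.08 once +dox trametinib replicate 2 was dropped and rose to 0.68 once replicate 3 of that group was; Cdc25a, a phosphatase that starts S phase, had the smallest p at −0.44 (adjusted p = 0.256).

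The values for ribosome biogenesis lay mostly under 0, as did those of 9792 of all 18193 genes tested. Of 18 genes, 17 had a response difference under 0, 0 were called by limma, 7 were lower at an unadjusted p under 0.05, and the median was −0.49; Nip7, a ribosome assembly factor, had the smallest p at −0.74 (adjusted p = 0.160). In +dox cells 17 of the 18 were called for a fall, with a median of −1.32, and in −dox cells 13, with a median of −0.77. Over all 18193 genes tested, the counts were 2269 and 1959. Of 17 glycolysis genes, 0 were called, 6 were lower at the unadjusted threshold and the median was −0.38, with Pfkfb3, a regulator of glycolytic flux, at −1.40 (adjusted p = 0.112). Of 23 genes of cholesterol synthesis and uptake 0 were called, 2 were higher at that threshold and the median was 0.35, which fell to 0.08 once −dox trametinib replicate 1 was dropped and to 0.14 for +dox trametinib replicate 2. The glycolysis median was −0.20 without −dox trametinib replicate 1.

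Some genes that the study's text discusses were examined singly, and those given here were not called for a response difference. Among the T-type calcium channels, Cacna1g and Cacna1h lay under the background level on all 12 arrays, with response differences of −0.23 ± 0.20 and 0.11 ± 0.18 (adjusted p = 0.728 and 0.871). The paper reports high Cacna1h in +dox against −dox cells by qPCR and western blot, which is another comparison. Array values under the background level cannot speak to it. Of 32 measured genes of calcium channels and calcium signalling 0 were called, and the median was −0.03. Mitf, the master factor of the melanocyte lineage, differed by 0.39 ± 0.40 and Pmel by 0.08 ± 0.16. Among the reprogramming and stem cell genes Sox2 differed by 0.68 ± 0.68, Pou5f1 by −0.44 ± 0.23, Klf4 by 0.13 ± 0.33 and Fut4 by 0.23 ± 0.15, and Ngfr, a marker of the neural crest state, by 1.64 ± 0.65 (adjusted p = 0.347). None of these was called, and with standard errors up to 0.68 a difference of that size could not be detected. Cacna1i was not analysed here.

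Few markers of other cell types were called. Of 10 T cell markers 1 was called, Cd3g, and of the B cell, macrophage, fibroblast, endothelial and keratinocyte markers 0 were called. Their counts at an unadjusted p under 0.05 were 0 of 4, 2 lower of 8, 2 higher of 7, 1 lower of 5 and 1 higher of 4. Over all 18193 genes tested, 1074 were higher and 1043 lower at that threshold. Under the background level in all 4 groups were 4 of 8 macrophage markers (Ptprc, Adgre1, Lyz2 and Aif1), 3 of 5 endothelial, 3 of 4 B cell, 3 of 7 fibroblast and 2 of 4 keratinocyte markers. Of the other macrophage markers, Cd68, a lysosomal protein, averaged 7.79 in +dox DMSO cells against 6.05 to 6.73 in the other groups, a response difference of −2.11 ± 0.88 (adjusted p = 0.380). Itgam, an integrin subunit of myeloid cells, read 4.19, 6.90 and 5.72 in +dox DMSO cells and 2.97 to 3.83 on the 9 other arrays, a difference of −1.98 ± 0.68 (adjusted p = 0.266). Csf1r and Fcgr1 differed by 0.10 and 0.07. Without +dox DMSO replicate 1, 1 macrophage marker was called lower. The part of other cell types in the called differences was not tested.

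The number of called genes depended on single arrays. Leaving out 1 array at a time gave 13 to 200 genes, the lowest without +dox DMSO replicate 3 and the highest without −dox DMSO replicate 1. Without the latter array, which stood apart, all 60 genes were called, 160 genes were higher and 40 lower, and the difference of Ifit1 was 5.12 and that of Cd3g 4.17. Without −dox trametinib replicate 1 it was 141 genes and without +dox DMSO replicate 1 it was 179, of which 92 were higher and 87 lower, while the other 9 runs gave 46 or fewer. In each of the 12 runs 11 genes were called: Cd3g, Prkcb, Samd9l, Frzb, Mfap3l, Slc6a20a, Rpe65, Khdc1a, Prss46, Strip2 and Tbx21. These are the 11 genes with the smallest p on all 12 arrays, so the runs add no independent evidence for them. Of these, Prkcb, Frzb, Slc6a20a, Rpe65, Khdc1a, Strip2 and Tbx21 had a mean over the 12 arrays under the background level. The filter at that level left them out. With each array centred on its median, which shifted the median response difference of all genes to −0.21, 49 genes were higher and 168 lower, so that 22.6% of called genes were higher against 78.3% in the deposited scaling. Of the 60 genes 54 were called in that scaling too, and the median of the antiviral list was 1.28 against that shift.

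**Figure D5:**
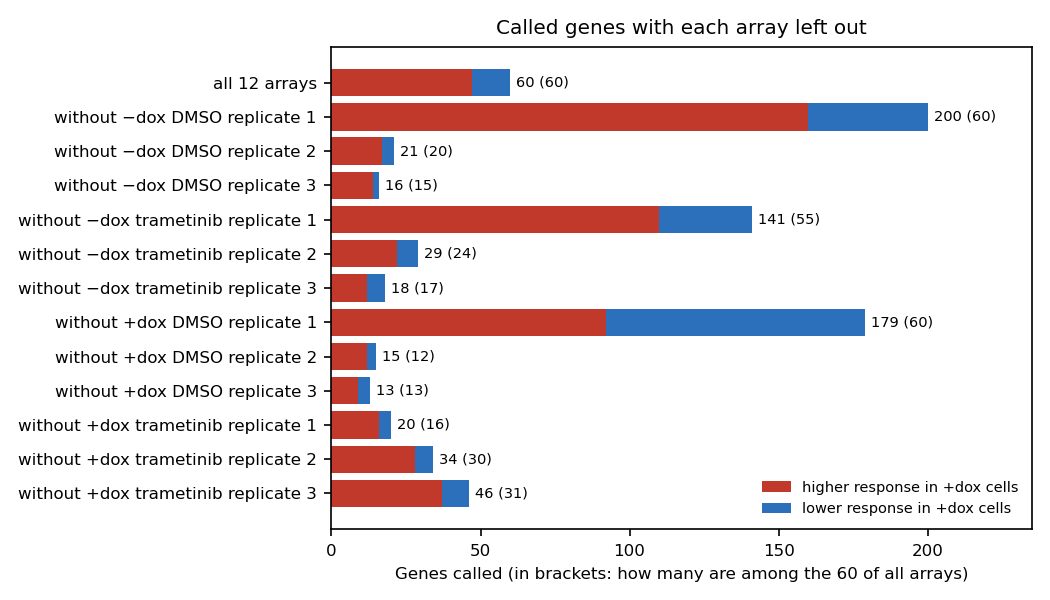
Number of called genes (x axis) with all 12 arrays and with each array left out (rows), split into a higher (red) and a lower (blue) response in +dox cells; the number in brackets counts how many are among the 60. Counts range from 13 to 200, and the runs without −dox DMSO replicate 1 and without +dox DMSO replicate 1 hold all 60.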

How the data were processed

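RNA of the 12 arrays was hybridised by the authors to Affymetrix mouse expression arrays. The deposited values are log2 expression, which the authors obtained by RMA in Chipster (background correction, quantile normalisation and summary per probe set; version and settings not given in the sources used here). RMA compresses low signals, so differences near background are understated. From these values, 34945 probe sets assigned to 1 gene were used; 932 with several genes, 9160 not listed with a gene and 64 control probe sets were left out. Each of 18193 genes was represented by its brightest probe set on average.

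Groups came from the labels, 3 arrays each. Group means were fitted with limma 3.58.1 (R 4.3.3; lmFit, eBayes), the response difference was tested as a contrast over all 4 groups, with the Benjamini-Hochberg adjustment run across the whole table. Genes were called at an adjusted p under 0.05. The fit was tested on simulated data. For the background level, 86 probe sets of smell and taste receptors were averaged over the arrays and the 95th percentile was taken; a change to or from a group under it is given as at least the distance to that level. Values with ± are the SE of a difference or, where said, the SD of 3 arrays.

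Genes were chosen for the text by rule: array values for the 12 called genes with the smallest p in each direction, other called genes by their difference, and in each gene list the called members or the 1 with the smallest p, the interferon pathway by role, and genes named by the study; other genes were named after their values were seen. The members and lists were chosen with earlier results of these data known. Alternatives were a replicate block, array weights, other normalisations, probe set rules, a filter, other thresholds and leaving out each array. Arrays carry no scan dates here, so a batch could not be examined.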

Additional observations from a re-analysis of the deposited data

Results flagged for a closer look

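The response to trametinib differed between +dox and −dox cells in 47 genes with a higher and 13 genes with a lower response by the test of the difference itself. On the log2 scale, in the order of their p, the higher differences were 4.05 for Cd3g, 1.38 for Prkcb, 2.30 for Samd9l, 2.44 for Frzb, 1.5 for Slc6a20a, 2.08 for Rpe65, 2.31 for Khdc1a and 2.87 for Strip2. Next came 1.59 for Tbx21, 1.76 for Il17d, 2.33 for Gm20559, 4.65 for Ifit1, 2.61 for Zfp467, 3.44 for Gbp2, 1.08 for Pde1b and 2.40 for Tppp3. Next came 1.03 for Vmn1r51, 2.33 for Apcdd1, 0.97 for Msh3, 4.6 for Iigp1, 2.05 for Matn2, 3.43 for Oasl2, 1.33 for Crhr2 and 1.14 for Akap17b. Next came 1.47 for Zfp608, 0.92 for Fgf1, 2.26 for Diras2, 2.10 for Sost, 1.88 for Pcsk1n, 1.12 for Sv2b, 3.36 for Gbp3 and 1.45 for Pamr1. Next came 3.59 for Rsad2, 1.31 for Rgma, 1.34 for Dzip1, 2.63 for Egr2, 1.37 for Ucn3, 0.87 for Krba1, 1.22 for Kcnq5 and 1.89 for Gp1bb. Next came 1.12 for Zfp503, 1.35 for Mcam, 1.92 for Lmcd1, 0.90 for Pcbd2, 1.03 for Trafd1, 1.82 for Oas1b and 1.32 for C130071C03Rik. The lower differences were −1.91 for Mfap3l, −1.65 for Prss46, −1.08 for Cpox, −1.43 for Ydjc, −0.91 for Acer3, −2.08 for Cntnap2, −2.13 for Gcnt2 and −1.23 for Epp13. Next came −1.73 for Stag3, −1.18 for Myhas, −1.84 for Misp3, −1.82 for Zfp52 and −1.99 for Trh. No group held enough arrays for a test of single outlying values.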

How the results depend on the processing

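Among the values of the 60 called genes under the alternatives, 735 kept the call, 442 lost it and 0 changed direction. With the replicate number as a replicate block, 141 genes were called, 85 higher and 56 lower, including all 60; same-numbered arrays correlated over 0.1 in 13 of 18 pairs (−0.08 to 0.46), and since 5 did not and the labels give the numbers no meaning, the block was kept as an alternative. With it 8 antiviral genes, 1 gene of interferon signalling and 1 sensor were called. Arrays weighted by quality gave 1066 genes (680 higher, 386 lower), centring gave 217 (168 lower), the filter at the background level 25 (18 higher, 7 lower) and the probe set with the largest variance 7 lower. An adjusted p under 0.01 left 11 genes (9 higher, 2 lower) and one under 0.1 gave 142 (93 higher, 49 lower). Leaving out 1 array gave 13 to 200 genes, 9 to 160 higher and 2 to 87 lower. Further quantile normalisation (57), probe sets averaged per gene (44), eBayes with trend (74), each probe set on its own (60) and a minimum difference of 1 (55) stayed within 1.5 times of 60. The cause of these changes was not tested. With 3 arrays a group, differences of low genes are limited by signal over background: at a level of 4.59 or 5.42, the called genes above it in no group were 3 or 10 in place of 6.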

Other observations

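Of 96 genes whose responses differed by more than 2 on the log2 scale, 22 were called and most did not pass the threshold. The genes named here are examples of those not called. Ptgs2, the inducible cyclooxygenase, read 9.64 ± 0.10 (SD, n = 3) and 10.78 ± 0.79 in −dox cells and 9.24 ± 0.62 and 7.13 ± 0.68 in +dox cells under DMSO and trametinib, a response difference of −3.24 ± 0.60 (SE; limma adjusted p = 0.0567). Sucnr1, the succinate receptor, differed by −3.15 ± 0.62 (adjusted p = 0.0719) and Bex1 by −2.84 ± 0.53 (adjusted p = 0.0567). Cdon, a co-receptor of hedgehog signalling, differed by 2.00 ± 0.36 (adjusted p = 0.0512), and Cxcr4, a chemokine receptor, by 2.01 ± 0.39 (adjusted p = 0.0685). The difference of Hp, haptoglobin, was −4.35 ± 1.58 (adjusted p = 0.299), with an SD of 2.73 among the −dox trametinib arrays. These genes were chosen after their values were seen.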
